A study of Drosophila melanogaster with 6 samples.

Results

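The regions described here are the H2Av regions of the interior of the X chromosome of Drosophila melanogaster. They were the deposited enriched regions whose midpoint lay on X from 2000001 to 20422827 on FlyBase release 5, which leaves out 2 Mb at each end of the sequence, an interior of 18.4 Mb. The combined list, which the authors made for the replicate set, held 800 such regions of 5905 in all. The lists of ChIP replicates 1, 2 and 3 held 645 of 4403, 715 of 5016 and 673 of 4763. Position alone chose them, so their density, width, score and overlap were free to vary. The interiors of 2L, 3L and 3R, cut in the same way, served as background, with 655, 779 and 953 regions in the combined list.

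H2Av was mapped by chromatin immunoprecipitation and sequencing (ChIP-seq) in embryos of the wild-type strain Oregon-R (Oregon-R-modENCODE) aged 14 to 16 h and fixed with 1.8% formaldehyde, with the antibody H2AV 9751. The study has 3 ChIP libraries and 3 inputs (the same kind of chromatin without immunoprecipitation), with no treatment or mutant. The material was whole embryos, a mixture of tissues, and the labels do not state their sex. Only region lists of ChIP libraries were used here, and none of an input. Read numbers are unknown, and nothing in the labels says that the replicates came from separate collections, so SDs may measure technical spread only. By its experiment number, ChIP replicate 1 stands beside the input it was paired with (input 3), while replicates 2 and 3 are numbered apart from theirs (inputs 1 and 2); any effect of that and other traits of replicate 1 cannot be told apart.

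H2Av is the only H2A variant of the fly. It replaces H2A in a subset of nucleosomes, is enriched downstream of the starts of active genes, and is also the histone that is phosphorylated at DNA breaks. The X chromosome is a special case for such maps in the fly, because males carry a single X whose genes are expressed at a raised level by the dosage compensation complex, which spreads over transcribed genes of that chromosome and acetylates histone H4. Females carry a pair of X chromosomes and do not assemble that complex.

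The X interior was more densely occupied than the interiors of 2L, 3L and 3R in every replicate. Regions held 17.4%, 19.9% and 19.8% of the bases of the X interior in replicates 1, 2 and 3 (mean 19.0% ± 1.40, SD, n = 3). In the same lists 2L had 14.5%, 16.2% and 16.2%, 3L had 14.7%, 16.5% and 16.3%, and 3R had 15.6%, 17.7% and 17.6%. X lay above each of these arms within each list, although replicate 1 on X was below replicates 2 and 3 on 3R. Relative to the mean of the 3 arms, the log2 ratio for X was 0.22, 0.25 and 0.24 (mean 0.24 ± 0.015, SD, n = 3). This 1.18-fold difference was far larger than the spread of the within-list ratio. The share of X itself varied between replicates with an SD of 1.40 percentage points. An exact sign-flip permutation test (two-sided) of these ratios had p = 0.25, the smallest value that 3 replicates allow, and so makes no call. X did not stand above every autosomal arm: the interior of 2R had 18.0%, 20.3% and 20.1%, slightly above X each time, and with 2R added to the background the log2 ratio was 0.16 ± 0.015.

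Over whole lists, the higher share came with more regions and a median width close to that of the arms. The X interior carried 35.0, 38.8 and 36.5 regions per Mb, against 31.5 ± 1.41 for the mean of the 3 arms (SD, n = 3). The log2 ratio was 0.22 ± 0.020, above 0 in 3 of 3 replicates (exact sign-flip permutation p = 0.25), and it was 0.14 ± 0.018 with 2R in the background. The 2R interior itself carried 37.9, 40.2 and 38.1 regions per Mb, more than X in each replicate. The median width of X regions was 3757, 3740 and 3840 bp. The mean over the arms was 3812 ± 97.7 bp, and the log2 ratio of width, -0.01 ± 0.018 (SD, n = 3), was smaller than its spread. The middle part of the width distribution on X ran from 2314 ± 7.09 bp at the lower quartile to 6361 ± 243 bp at the upper. Regions of at least 10 kb made up 8.06%, 10.8% and 12.5% of the X regions, a share that differed from the mean of the arms by 0.13 ± 1.23 percentage points (SD, n = 3). The shortest X region of a replicate list was 1303 bp wide and the widest 37388 bp.

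**Figure D1:**
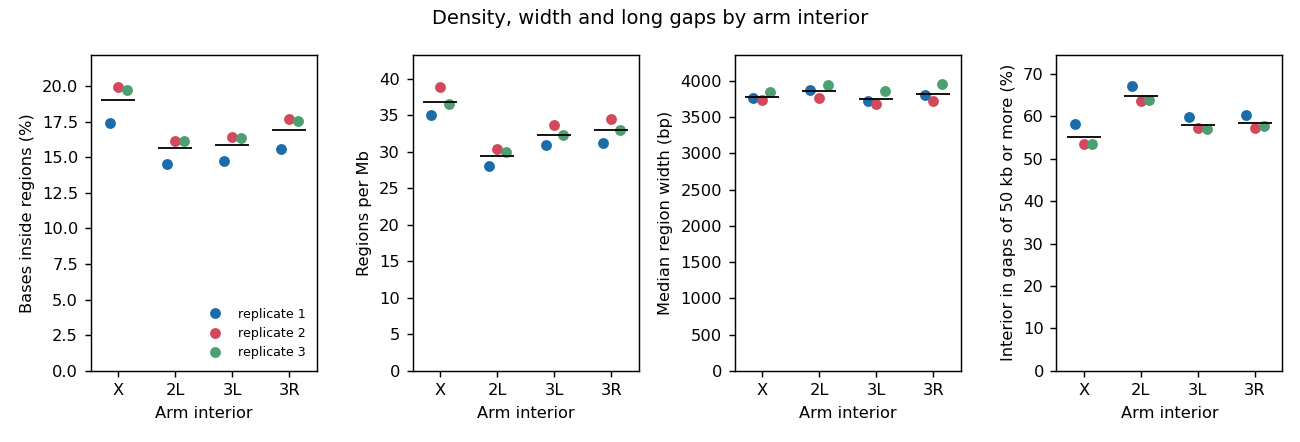
Bases inside H2Av regions (%), regions per Mb, median region width (bp) and the share of each interior lying in gaps of at least 50 kb (%), for the interiors of X, 2L, 3L and 3R. Points are the 3 ChIP replicates and black lines their means. Among these interiors X has the highest share (19.0%) and number (36.8 per Mb) and the lowest share in long gaps (55.1%). Its median width is close to that of the arms. The interior of 2R, not shown, has 19.5%, 38.7 per Mb and 51.6%.

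Spacing on X differed from the 3 arms in the long gaps and among the strong regions. Neighbouring regions of the X interior lay a median 4888, 4402 and 4757 bp apart. This differed from the arms by less than the spread, with a log2 ratio of 0.01 ± 0.038 (SD, n = 3). Gaps under 1 kb made up 18.9% ± 0.949 of the gaps on X and lay 0.71 ± 0.41 percentage points below the mean of the arms. Gaps of at least 50 kb numbered 82, 78 and 76 on X and took up 58.2%, 53.5% and 53.5% of the interior, against 60.4% ± 1.72 for the mean of the arms. The difference was -5.33 ± 1.01 percentage points (SD, n = 3), below 0 in 3 of 3 replicates and against each arm singly (exact sign-flip permutation p = 0.25). In the 2R interior such gaps took up less than on X, 51.6% ± 2.22.

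Among the highest-scoring 50% of each whole list, the regions of X lay closer together than those of 2L, 3L and 3R. Scores are values the authors gave each region, and they were used here only within a list. The median gap between these regions was 11.1, 8.99 and 10.7 kb on X, and 14.1 ± 1.60 kb for the mean of the arms (SD, n = 3). The log2 ratio was -0.51, -0.51 and -0.34 (mean -0.45 ± 0.096, 0.731-fold), and X was below each of 2L, 3L and 3R in every replicate. The exact sign-flip permutation p was again 0.25. The interior of 2R was close to X, with 11.6, 10.9 and 11.1 kb, above X each time. These stronger X regions had a median width of 5914 ± 303 bp, against 5533 ± 180 bp for the mean of the arms, a log2 ratio of 0.10 ± 0.040 (SD, n = 3; exact sign-flip permutation p = 0.25). X was the widest in each replicate, although in replicate 1 it had 5629 bp and 2L 5596 bp. For the lower-scoring 50% the log2 ratio of the median gap was -0.25 ± 0.29, with 0.06 in replicate 1, and did not stand out from its spread.

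Along the X interior the share of bases in regions changed steeply between windows of 250 kb. Over 73 full windows the mean of the 3 replicates had a median of 17.4%, quartiles of 9.37% and 27.0%, and a range from 0 to 52.4%. In 13 windows (17.8%) the share was at least 30%, and these held 36.3% of the covered bases. On 2L, 3L and 3R, 6.58%, 11.0% and 12.6% of the windows were as full. The share was under 10% in 19 windows of X (26.0%), against 36.8%, 36.6% and 26.3% on the arms. Neighbouring windows were only weakly alike in share (Spearman correlation 0.176 over 72 neighbouring pairs, a description of windows of 1 chromosome). Across windows the share followed the number of regions (Spearman correlation 0.920 over 73 windows) more than their median width (0.467 over the 72 windows with a region in every replicate).

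The fullest window of the X interior lay from 19.5 to 19.75 Mb, with 50.3%, 53.3% and 53.5% of its bases in regions in replicates 1, 2 and 3 (mean 52.4% ± 1.77, SD, n = 3). It held 19.7 ± 1.53 regions, and the window that followed it, from 19.75 to 20.0 Mb, was among the 8 emptiest, with 2.67%, 7.36% and 5.85%. The next fullest were 15.75 to 16.0 Mb with 46.4% ± 4.99 and 9.0 to 9.25 Mb with 46.0% ± 2.93. The windows from 16.25 to 16.5 Mb (40.4% ± 4.88) and from 15.5 to 15.75 Mb (38.8% ± 1.23) were also among the 8 fullest, so that 3 of them lay between 15.5 and 16.5 Mb. The other full windows began at 6.5, 13.5 and 5.75 Mb, with 39.0% ± 2.68, 38.3% ± 1.66 and 35.9% ± 3.69. These windows were filled in different ways. That from 15.5 to 15.75 Mb held 10.3 ± 0.577 regions with a median width of 7561 bp (mean of the replicates' medians) at a median score percentile of 79.6, whereas that from 5.75 to 6.0 Mb held 16.3 ± 0.577 regions with a median width of 3368 bp at percentile 42.2.

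**Figure D2:**
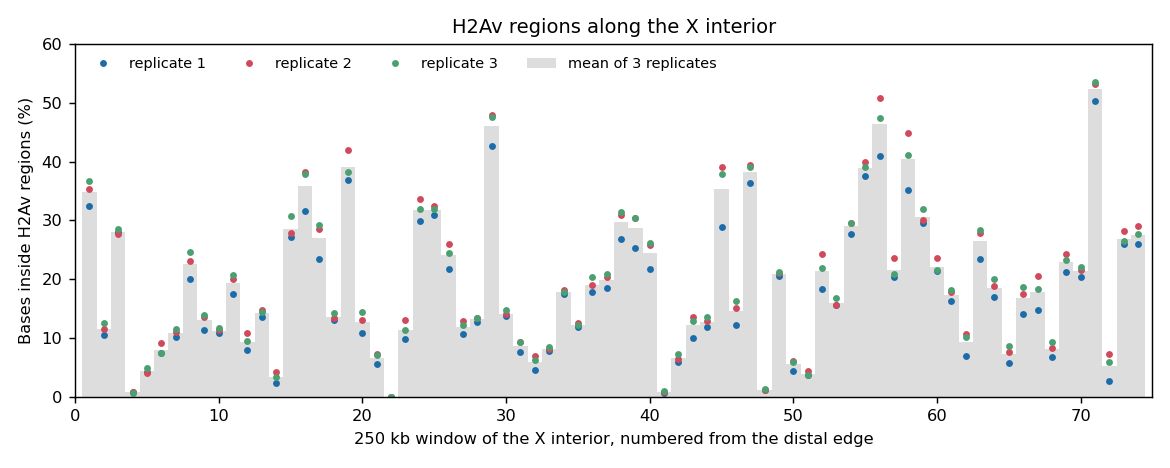
Bases inside H2Av regions (%) in consecutive windows of 250 kb along the X interior, numbered from the edge nearer the telomere. Grey bars are means of the 3 ChIP replicates and points the single replicates, and the last window is shorter (172827 bp). The fullest window reaches 52.4% and 1 window has 0% in every replicate.

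At the other extreme, the window from 7.25 to 7.5 Mb had no base in a region of any replicate. The windows starting at 2.75, 12.0 and 13.75 Mb had 0.780% ± 0.0937, 0.814% ± 0.178 and 1.13% ± 0.110 (SD, n = 3), each with 1 region in every replicate. Those starting at 5.25, 14.5 and 3.0 Mb had 3.36% ± 0.908, 3.94% ± 0.321 and 4.33% ± 0.479. The longest stretch of the interior with no region in any replicate ran from 7226850 to 7572304 (345 kb), of which combined regions took up 1612 bases. The second, from 12010498 to 12355360 (345 kb), had 2759 bases in the combined list. They were followed by 14173138 to 14471945 (299 kb), 18794251 to 19063753 (270 kb) and 3070811 to 3312938 (242 kb), with 1293, 46 and 53 bases in the combined list. The stretches from 14498896 to 14719890 (221 kb), 9679730 to 9896877 (217 kb) and 4981267 to 5190626 (209 kb) complete the 8 longest. Stretches of at least 50 kb took up 51.1% of the X interior in this count, against 62.4%, 57.2% and 56.1% on 2L, 3L and 3R. The longest stretch on X was shorter than the longest on each arm, which were 637, 412 and 368 kb. How many reads could be aligned in these stretches was not analysed here.

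The part of the interior nearest the centromere was the fullest. Cut into 3 equal parts, X had 15.8%, 17.9% and 17.9% of bases in regions from 2000001 to 8140942 in replicates 1, 2 and 3. From 8140943 to 14281884 the shares were 16.2%, 18.4% and 18.5%. From 14281885 to 20422827 they were 20.3%, 23.5% and 22.9%, above both other parts in each replicate. The number of regions per Mb was 32.2 ± 0.497, 36.2 ± 1.29 and 42.0 ± 4.21 (SD, n = 3) in that order. The median widths, 3865 ± 199, 3717 ± 60.4 and 3769 ± 176 bp, differed by less than their spread. The edges of the interior fell in gaps. In the combined list the first region inside was 2007726 to 2010013, at score percentile 35.9, and the nearest outside was 1987075 to 1988204, at 3.27. At the other edge 20394109 to 20398738, at percentile 80.4, was the last inside, and 20630983 to 20634672, at 52.2, the first outside.

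The replicates traced almost the same profile along X. The Spearman correlation of the window shares was 0.990 between replicates 1 and 2, 0.993 between 1 and 3, and 0.995 between 2 and 3, over 73 windows, which are not independent samples. Replicate 1 lay below both others in 65 of 73 windows and above both in 0. The coefficient of variation of the window shares was 0.657, 0.639 and 0.630 on X, against 0.710 ± 0.0095 for the mean of the arms, a difference of -0.068 ± 0.0067 (SD, n = 3; exact sign-flip permutation p = 0.25). This difference came mainly from 2L. It was -0.174 ± 0.0028 against 2L, -0.029 ± 0.012 against 3L and -0.0011 ± 0.0085 against 3R, and 2R was more even than X by 0.040 ± 0.0092. With windows of 100 kb it was -0.137 against the mean of the arms, and with 2R in the background -0.041.

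In score rank, regions of X matched the arms at the middle of the lists and differed at the low end. A region's rank was taken as its percentile among all scores of its own list, the share of scores at or below its own. Regions with tied scores thus got the same, highest rank of their tie. Ties involved 22.0%, 13.0% and 12.6% of X regions in replicates 1, 2 and 3. The share of ties on the arms was not analysed here. The median percentile of X regions was 53.6, 52.0 and 53.9, against 53.5 ± 0.700 for the mean of the arms, a difference of -0.27 ± 1.30 (SD, n = 3) that did not exceed its spread. The lowest-scoring 10% of each list, however, held only 21, 31 and 29 regions of the X interior. That was 3.26%, 4.34% and 4.31% of the X regions, against 10.8% ± 0.399 for the mean of the arms, and the difference was -6.80 ± 0.386 percentage points (SD, n = 3). On 2L, 3L and 3R the shares in the 3 replicates ran from 9.20% to 12.2%, and X was below every one of them in every replicate. X was also below 2R, by 5.25 ± 0.456 percentage points. The exact sign-flip permutation p was 0.25. X regions were correspondingly frequent in ranks from 20 to 40 of the list. Percentiles from 30 to 40 held 14.3% ± 0.958 of X regions, against 8.12% ± 0.950, 8.54% ± 1.09 and 6.93% ± 0.678 on the arms. In the highest-scoring 10%, X had 12.4%, 10.8% and 11.0% of its regions, 0.91 ± 0.99 percentage points above the mean of the arms, a difference within its spread.

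Low ranks were scarce on X among regions under 4 kb wide. X regions under 2 kb wide had a median percentile of 19.5, 20.0 and 18.3 in replicates 1, 2 and 3. Regions of that width on the arms had 7.79 ± 0.614 (mean of the 3 arms, SD, n = 3), and X was above each arm in every replicate, by 11.5 ± 0.915 against their mean (exact sign-flip permutation p = 0.25). The share of regions this narrow was 16.8% ± 0.421 on X and 15.9% ± 1.81 on the arms. From 2 to 4 kb the median percentile differed by -0.67 ± 1.47, within its spread, but the low tail did not match. The lowest 10% of X regions of that width ended at percentile 24.1, 26.1 and 25.4, against 17.4 ± 0.0777 for the mean of the arms, a difference of 7.72 ± 0.969 (SD, n = 3). X was above each of 2L, 3L and 3R in every replicate (exact sign-flip permutation p = 0.25). In the wider classes X was not above every arm at this point in all 3 replicates, and the differences were -0.63 ± 2.49 from 4 to 8 kb and 3.13 ± 1.62 from 8 kb upward. The median percentile from 8 kb upward differed by -1.73 ± 2.84, within its spread. From 4 to 8 kb it differed by 2.67 ± 2.32, with 5.33 in replicate 1 and 1.02 and 1.67 in the others. The lowest score of any X region was 0.60, 0.33 and 0.45 in the 3 replicates. The lowest on 2L, 3L or 3R was 0.38, 0.21 and 0.28 in the same lists. The combined list showed the same order, with narrow X regions at a median percentile of 25.1 and those of 2L, 3L and 3R at 12.2, 12.8 and 13.0. Whether read coverage on X moved with these ranks was not analysed here. Score and width were related on X as on the arms, with Spearman correlations of 0.793, 0.804 and 0.809 across X regions in the 3 lists.

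**Figure D3:**
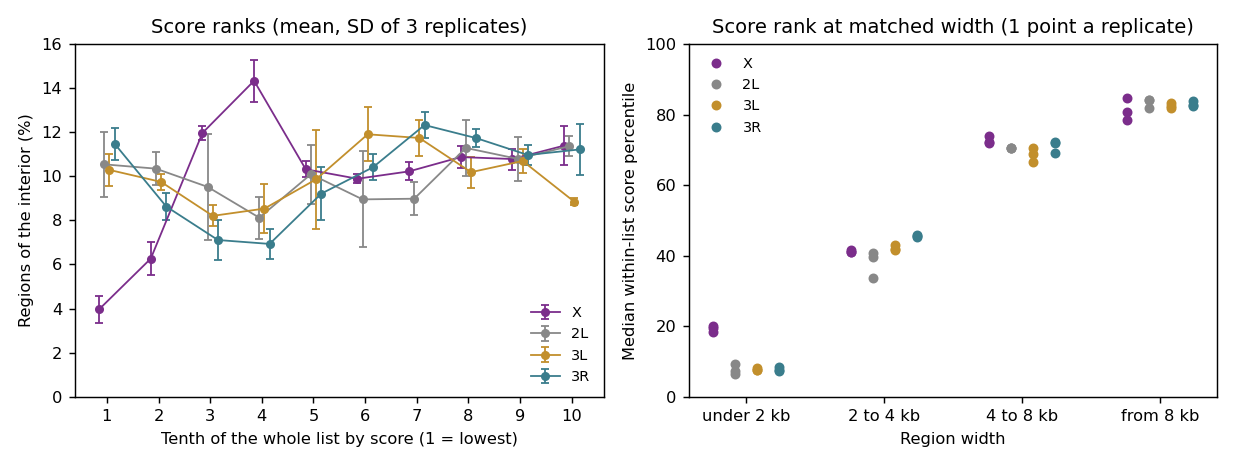
Left, the share of an interior's regions (%) in each 10% of its whole list by score, as mean and SD of 3 ChIP replicates. Right, the median within-list score percentile of regions by width, 1 point a replicate. X has 3.97% of its regions in the lowest-scoring 10%, and its regions under 2 kb lie at percentile 19.3 against 7.79 for the mean of the arms.

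Replicate lists overlapped a little less closely on the X interior than on the arms. The Jaccard index is the number of bases common to 2 lists divided by those in at least 1 of them. On X it was 0.790 between replicates 1 and 2, 0.805 between 1 and 3, and 0.831 between 2 and 3. The same pairs gave 0.830, 0.830 and 0.857 on 2L, 0.816, 0.824 and 0.858 on 3L and 0.822, 0.823 and 0.858 on 3R. X was lowest for every pair, and the difference from the mean of the arms was -0.027 ± 0.0059 (SD over 3 pairs, which share lists and are not independent). The difference was no larger than its spread, -0.0086 ± 0.030, when only the highest-scoring 50% of each list was kept. Bases in regions of all 3 replicates were 2.96 Mb of X, which is 72.7% of the bases in any replicate, against 76.8%, 76.0% and 76.3% on 2L, 3L and 3R.

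The edges and scores of matched regions were also less alike on X. Regions that paired 1 to 1 between lists numbered 453, 442 and 489 for the 3 pairs on X. These were 70.2%, 68.5% and 68.4% of the X regions in the first list of each pair. On 2L, 3L and 3R the share ran from 72.7% to 78.0% and was above that of X for every pair. The edges of the matched X regions differed by a median 192, 204 and 173 bp. The corresponding shifts were 155 ± 19.7 bp on 2L, 153 ± 21.8 bp on 3L and 162 ± 21.2 bp on 3R (SD over 3 pairs), and for every pair X had the largest. The Spearman correlation of their scores was 0.909, 0.919 and 0.935 on X, and 0.925 to 0.964 on the arms, with X lowest for each pair. These are descriptions across regions, which are not independent replicates. On X the region in replicate 2 was the wider in 72.4% of matches with replicate 1, and that in replicate 3 in 77.6%. The arms were similar, with 68.5% to 69.8% and 70.9% to 76.9%. Between replicates 2 and 3 the region of replicate 3 was wider in 54.6% on X and in 51.0% to 54.5% on the arms.

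**Figure D4:**
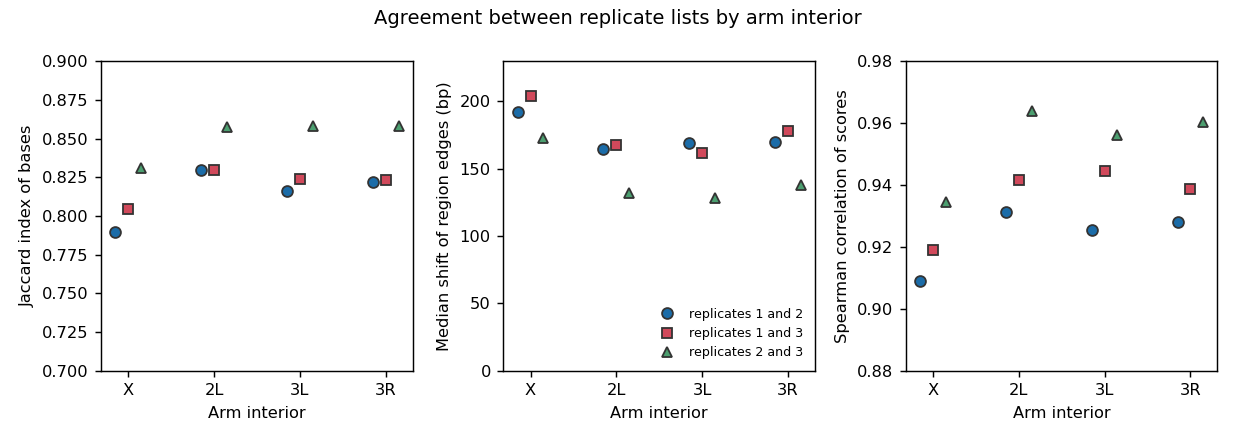
Jaccard index of covered bases, median shift of the edges of regions matched 1 to 1 (bp) and Spearman correlation of their scores, for the 3 pairs of ChIP replicates on each arm interior. The axes of the first and last panels do not start at 0. For every pair X has the lowest index (0.790 to 0.831), the largest shift (173 to 204 bp) and the lowest correlation (0.909 to 0.935).

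Of the 800 combined regions of the X interior, 488 overlapped a region in all 3 replicates by at least 1 base (61.0%, exact 95% interval 57.5 to 64.4 by the Clopper-Pearson method, for counting error alone). The background was 57.9% of the whole combined list and 65.9% of the interiors of 2L, 3L and 3R together, so the X share lay between them. By arm it was 67.0%, 66.6% and 64.4% on 2L, 3L and 3R. The 488 regions held 86.7% of the combined length on X and had a median width of 5722 bp. A further 80 regions (10.0%) overlapped 2 replicates, 93 (11.6%) overlapped 1 and 139 (17.4%) overlapped none. On 2L, 3L and 3R, 8.40%, 7.45% and 8.08% of the combined regions overlapped 2 replicates. There 10.1%, 10.7% and 12.1% overlapped 1, and 14.5%, 15.3% and 15.4% overlapped none. Of the 80 on X, replicate 1 was the one missing for 61. Of the 93, the single replicate was replicate 2 for 53, replicate 3 for 31 and replicate 1 for 9. The X regions in no replicate had a median width of 1297 bp, and 70 of them (50.4%) were at most 1300 bp wide. The corresponding shares were 55.8%, 59.7% and 55.8% on 2L, 3L and 3R. The narrowest X region was 1303 bp wide in the replicate lists and 1001 bp in the combined list. A combined region under 1303 bp could therefore be supported only by a wider replicate region.

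Support for X regions rose sharply at the middle of their score range. With the 800 regions ordered by score in groups of 80, the 3 lowest groups had 0, 1 and 6 regions in all 3 replicates. The fourth group, with scores from 0.54 to 0.62, had 22, and the fifth, from 0.62 to 0.78, had 66. The upper 5 groups had 77 to 80 of 80. By width, 1 of the 200 narrowest regions (1001 to 1874 bp) was in all 3 replicates, and 199 of the 200 widest (6816 bp or more) were. Part of the narrowest group lay under the smallest width of the replicate lists on X (1303 bp), which bears on this count. Weakly supported regions ranked higher on X than on the arms. Those in no replicate were at a median percentile of 27.7 of the combined list on X and at 13.0, 15.4 and 15.4 on 2L, 3L and 3R. Their median width on X was 1297 bp, so this in part repeats the higher rank of narrow X regions given above. Regions in 2 replicates were at 34.8 on X and at 19.6, 17.4 and 18.4 on the arms. There is 1 combined list, so these values have no replicate check.

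The strongest X regions present in every list were of very different widths. The region from 8970873 to 8986012 (15140 bp) stood at percentile 99.9, 99.7 and 99.9 of the scores of replicates 1, 2 and 3. That from 15221458 to 15230670 (9213 bp) stood at 99.9, 99.6 and 99.7. The region from 10745874 to 10752972 (7099 bp) was at 99.95, 99.5 and 99.9, and its bases were covered to 97.0%, 98.7% and 99.5% by replicate regions. A wider one from 2606124 to 2623546 (17423 bp) was at 99.3, 99.2 and 99.6 by its largest replicate region, a single region of 17184 bp in replicate 3 and one of 10744 and 10715 bp beside a second in replicates 1 and 2. Shorter regions in this set were 13503009 to 13507948 (4940 bp), at 99.6, 99.2 and 99.0, and 9165566 to 9169369 (3804 bp), at 99.8, 98.8 and 99.1. The remaining 4 of the 10 with the highest lowest percentile were 13614603 to 13621102, 17742536 to 17756404, 3828212 to 3845762 and 6713589 to 6720456, at percentiles from 96.3 to 99.4 over the replicates.

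In the combined list, the highest scores on X included narrow regions. The 2 highest belonged to regions in no replicate, 15947828 to 15948913 (1086 bp, score 3.41) and 7375273 to 7376273 (1001 bp, score 3.24). The latter lay inside the longest stretch without a replicate region, 148378 bp from the combined region on its left and 195465 bp from that on its right. The other 8 of the 10 highest, with scores from 1.91 to 2.20, were in all 3 replicates and also belong to the 10 regions just described. Below the 2 highest, the strongest unsupported X regions were 18325296 to 18326303 (1008 bp, score 1.48), 17785334 to 17788554 (3221 bp, 1.05) and 15911455 to 15913438 (1984 bp, 0.81). No X region of a replicate list was narrower than 1303 bp. The 2 highest and that of score 1.48 could thus be in a replicate list only by overlap with a wider region.

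The widest combined regions of the X interior were occupied through most of their length in every replicate, often as several regions. The widest, 19531631 to 19570018 (38388 bp), lay in the fullest window and consisted of 5, 4 and 2 regions in replicates 1, 2 and 3, which covered 94.6%, 92.4% and 99.4% of it. The next, 2051279 to 2088319 (37041 bp), consisted of 3, 2 and 3 regions covering 82.1%, 94.9% and 92.7%. That from 15342471 to 15379280 (36810 bp) was a single region in replicates 1 and 3, of 36576 and 37388 bp, and 2 regions in replicate 2. The region from 11462825 to 11498888 (36064 bp) was 2, 2 and 1 regions. Only 15652642 to 15686319 (33678 bp) among the 10 widest was a single region in every replicate, of 33129, 33004 and 32365 bp. The least covered were 15851599 to 15881634 (30036 bp), with 76.3% in replicate 1, and 5833147 to 5861801 (28655 bp), with 79.4% in replicate 1, where it broke into 5 regions. The other 3, 14135384 to 14168855, 5190159 to 5221634 and 4519155 to 4546774, were covered to at least 84.6% in each replicate. Of the 488 supported regions of X, 339 matched a single region in each replicate and 41 were split in all 3, with median widths of 4455 and 12845 bp. Replicates 1, 2 and 3 split 102, 86 and 79 of the 488.

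**Figure D5:**
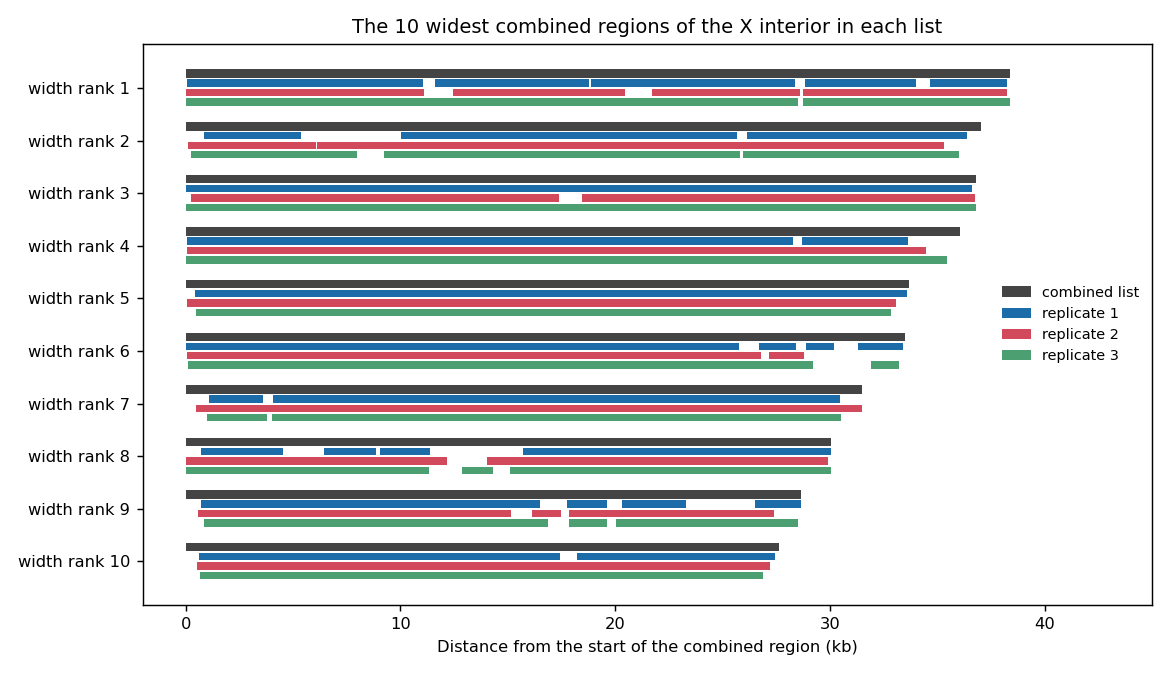
The 10 widest combined regions of the X interior, aligned at their start, with the regions of each ChIP replicate inside them (horizontal axis, distance in kb). Black bars are the combined list and coloured bars the replicates. The first is 38388 bp wide and consists of 5, 4 and 2 replicate regions, and the fifth is a single region in every replicate.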

How the data were processed

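Alignment used Bowtie 0.12.7 according to the submitters' processing notes. The authors deposited enriched regions for every ChIP library and 1 combined list, in coordinates of FlyBase release 5 per the file headers; the sources used here do not give the caller, its thresholds or how replicates were combined. The scale of the deposited score is unnamed, so it served only as a rank or description within a list. Depth, and so the precision of a single region, is unknown. Members and lists were chosen with earlier results of these data known.

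A region belonged to an interior by its midpoint, and covered bases were cut at the interior's edges. Overlap needed at least 1 base. X was set against the mean of 2L, 3L and 3R within each replicate list, as a log2 ratio or difference, and the 3 values were tested by exact sign-flip permutation (two-sided). Named regions were the 10 highest-scoring, the 10 widest and the 10 with the highest lowest percentile over replicates, the 5 highest-scoring in no replicate, the 8 fullest and 8 emptiest windows, the 8 longest stretches without a region, and those at the edges. The low end of the scores, width classes, spacing by score, the 3 parts of X, splitting and edge shifts were added after the lists were seen. Alternatives were the highest-scoring 50%, joining regions under 200 bp apart, ends of 1 or 3 Mb, 2R added, lists of equal number, windows of 100 and 500 kb, overlap of 50% and leaving out each replicate. The code for intervals was tested on simulated data, with 0 mismatches in 60 pairs of lists. No genome or annotation of release 5 was used here, so no gene is named. The tools were Python 3.11.15 with pandas 2.3.3, numpy 2.4.6, matplotlib 3.10.9 and scipy 1.17.1.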

Additional observations from a re-analysis of the deposited data

How the results depend on the processing

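The log2 ratios of covered share and of regions per Mb stayed above 0, and the spread over windows, the low-score share (-7.01 to -6.63 percentage points with 1 replicate left out) and the rank of narrow regions kept their sign, in all settings run for them; settings for the last pair were chosen after the data were seen. Dropping 1 of 3 replicates with the same sign cannot change a sign, and p is at its smallest value, so neither measures stability. Median width turned to 0.095 ± 0.040 (log2), above 0 in 3 of 3 replicates, with the highest-scoring 50%. The median gap was -0.45 with the highest-scoring 50%, -0.024 with close regions joined, -0.033 with ends of 1 Mb and -0.088 with lists of equal number. The median percentile difference was 0.81 with the highest-scoring 50%, 0.77 with ends of 1 Mb, and -0.87 to 0.42 with 1 replicate left out. The Jaccard difference was -0.0086 with the highest-scoring 50%, -0.036 with ends of 3 Mb and -0.033 to -0.021 with 1 replicate left out. Of combined X regions, the share overlapping every replicate was 69.8% when the combined and replicate lists were each cut to their highest-scoring 50%. It was 72.3% when all of them were cut to equal number. In both settings a combined region could lose its match because the replicate lists were cut too. The share was 55.5% when 50% of a region had to be covered. It was 61.9 to 68.6% when only 2 replicates had to overlap, highest without replicate 1. The correlation of profiles was 0.978 with the highest-scoring 50%, 0.988 and 0.975 with windows of 100 and 500 kb, and 0.990 to 0.995 with 1 replicate left out. The cause was not tested. No paired analysis was possible because every list belongs to a ChIP and none to an input. Unknown depth limits every statement on single regions.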
